A study of Danio rerio with 16 samples.

Results

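Tails of zebrafish embryos treated with notum-1 were compared with tails of WT embryos by single-cell RNA-seq, over every cell class that the deposited cell table names. The libraries were chosen by the treatment column of that table, WNT against WT, 4 libraries each. They held 65454 of the 130661 cells and 8 of the 16 libraries of the study, with 30822 cells from notum-1 and 34632 from WT. Both groups were embryos of the 10 to 12 somite stage, and the tail was cut off just behind the newest somite. A WT library came from 10 pooled tails and a notum-1 library from 12, taken apart with papain and put through 10x droplet RNA-seq of transcript 3′ ends, where each captured transcript carries a UMI (a molecular tag). The study's design text calls the 4 libraries of a group biological replicates. The group that the cell table names WNT was taken as notum-1, which the sample labels give as the treatment for Wnt inhibition. The sources used here do not give the strain, the way notum-1 was delivered or its dose, and WT is the one control. Values by library are given below in the order of the library names, which end in MG1, MG2, DJ1 and DJ2 in both groups. The labels do not say what these endings mean, and PZ, a name of 3 of the classes, is not spelled out.

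Wnt proteins are secreted signals that carry a lipid group, which they need to bind their Frizzled receptors. Notum is a secreted enzyme that removes this lipid, and its gene is itself switched on by Wnt signalling in many tissues. When Wnt binds Frizzled and an Lrp co-receptor, beta-catenin is stabilised and works with Tcf and Lef factors on target genes, several of which code for inhibitors of the pathway. In the vertebrate tailbud, Wnt signalling is known for keeping progenitors that give rise to both spinal cord and paraxial mesoderm, and for steering them towards mesoderm together with T-box factors and FGF.

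UMIs were summed per library over all cells and over the cells of each class, scaled to CPM (counts set to a common library size) with TMM factors, and tested per gene with edgeR's quasi-likelihood test. A gene is called where its p, adjusted by Benjamini-Hochberg, was under 0.05, and every log2 fold change is notum-1 minus WT, given with its standard error, from 4 against 4 libraries. Over all cells, 5879 of 15038 genes were called (39.1%), 3205 higher (21.3%) and 2674 lower (17.8%) in notum-1. A library held 26415698 to 50512590 UMIs in WT and 33086139 to 62492196 in notum-1. The 92 cytosolic ribosomal protein genes took 32.1, 33.4, 31.3 and 29.3% of UMIs in WT and 47.3, 40.5, 44.4 and 34.6% in notum-1, with no overlap (two-sided exact permutation p = 0.0286, the smallest that 4 against 4 libraries allow). Scaled to the library total alone, without TMM factors, the median over all genes moved from 0.0029 to -0.38 and 1515 genes were called higher and 5923 lower, so changes are given relative to the bulk of genes, and gene lists whose balance of calls turns with this choice are named. The deposited cells also differ in their limits: the highest mitochondrial share of a cell was 4.53 to 4.998% in WT libraries and 2.98 to 3.00% in notum-1. Sums over a class cannot tell fewer expressing cells from less RNA per cell. The class names were checked against marker genes: each class held its own kind's markers above their all-cells level, except PSM, at 78.0% of it in WT and 88.8% in notum-1, and intermediate mesoderm, at 70.14% in WT and 107.4% in notum-1.

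In droplet data some UMIs come from RNA that was free in the suspension, so a class also shows a low level of genes of other classes. These levels were lower in notum-1. The markers of PZ and PSM classes in anterior neuronal cells stood at 23.3% of their all-cells level in WT and at 11.4% in notum-1, and epidermis markers in PZ 1 at 36.8 and 16.8%. Among gene and class pairs in which the class held less than 1/3 of the gene's all-cells level, 46.2% were called lower and the median log2 fold change was -0.87, against 10.5% and 0.086 where the class held 1 to 3 times that level (22.6% called higher). A class is therefore called an expressing class of a gene where the gene's mean over the 8 libraries was at or above its mean over all cells, and responses are read in expressing classes. A class below this level may still express the gene, and a class can pass it through 1 group alone. Of the 72387 expressing pairs of the 21 classes, 57391 passed it in both groups, with 16.8% called higher and 9.935% lower, against 18.8 and 9.89% of all expressing pairs. What part of a change elsewhere came from free RNA was not tested.

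The transcript that marks the treatment, notum1a, was higher in notum-1 in all 21 classes tested. Over all cells it stood at 2.76, 3.43, 2.44 and 2.53 CPM in WT and 331, 607, 218 and 846 CPM in notum-1 (log2 fold change 7.49 ± 0.48, adjusted p = 5.84e-05), so the lowest notum-1 library was far above the highest WT library. In WT it was highest in dorsal neuronal cells, at 18.1, 18.6, 16.0 and 13 CPM, where the notum-1 libraries reached 494, 909.7, 293 and 1035 CPM. The highest notum-1 level was in epidermis 4, at 0.989, 0, 1.67 and 2.06 CPM in WT and 552, 1347, 344 and 1715 CPM in notum-1. The lowest mean was in anterior adaxial cells, at 155, 349, 144 and 413 CPM in notum-1, still with no overlap with WT. The MG2 and DJ2 libraries of notum-1 held more notum1a than MG1 and DJ1 over all cells and in all tested classes except the lmo2 and pax2 classes of lateral plate mesoderm. In anterior notochord, pax2 lateral plate mesoderm and mucus producing cells all WT libraries were at 0, so no fold is given there.

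**Figure D1:**
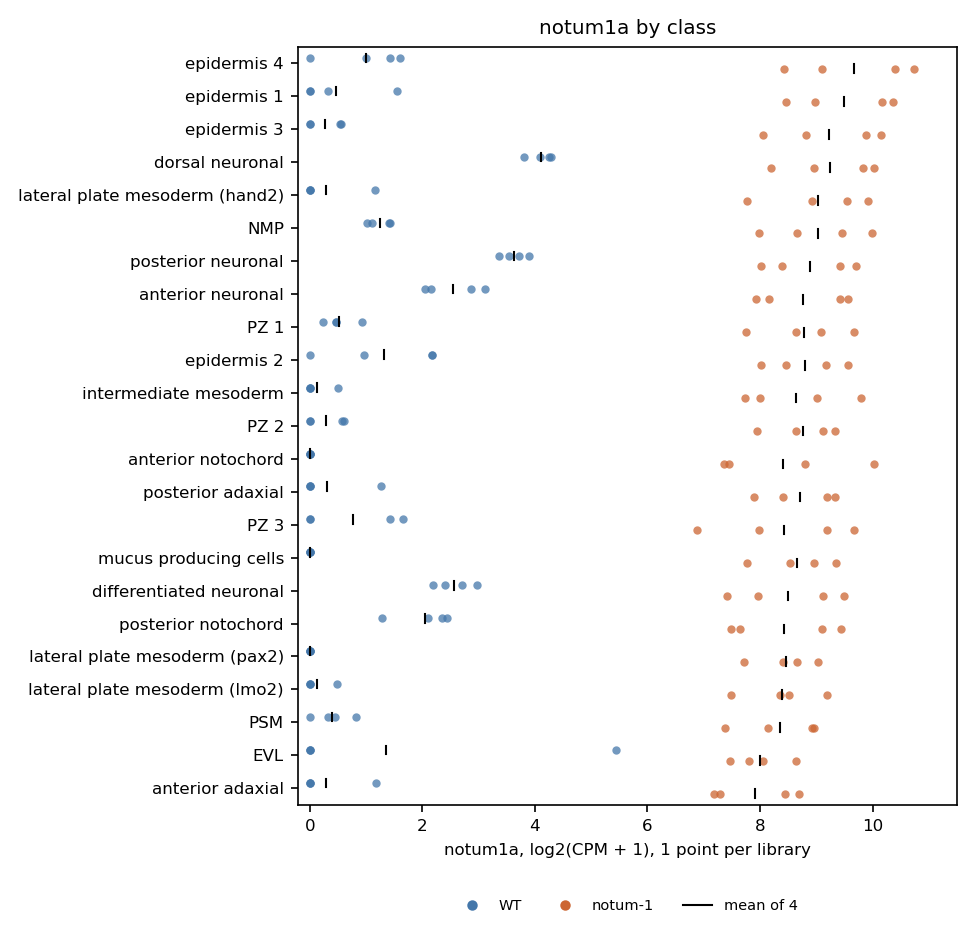
notum1a level in each class, as log2(CPM + 1), 1 point per library, with bars at the mean of the 4 libraries of a group. Notum-1 libraries lie above WT libraries in all 21 tested classes and in epidermis 2 and EVL, and the 4 notum-1 points spread from 218 to 846 CPM over all cells.

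Most tail classes shared a set of changes. Of 5468 genes tested in at least 16 classes, 524 (9.58%) were called higher and 188 (3.44%) lower in 16 or more of them. Of these, 309 of the 524 and 67 of the 188 were called in every expressing class tested. After notum1a, the genes with the highest median over classes were replication-dependent histone genes, which code for the proteins that package new DNA. zgc:165555.17 rose from a mean of 8.29 to 174.5 CPM over all cells (log2 fold change 4.40 ± 0.25, adjusted p = 1.52e-05) and was called in 20 of 20 classes. hist1h4l, a histone H4 gene, rose from 153 to 1422 CPM (log2 fold change 3.22 ± 0.25, adjusted p = 7.15e-05) and was called in 21 of 21. Histone genes have near-identical copies, and the sources used here do not say how the authors' counting shared reads among them, so the copy that rose is uncertain. The libraries of the groups also differed as a whole, as in the ribosomal share and the cell limits given above. What part of the shared changes came with such differences was not tested.

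Lower across classes was rrm2.1, a gene named for the small subunit of the enzyme that makes deoxyribonucleotides. It stood at 93.7, 74.0, 36.1 and 106 CPM in WT and 1.68, 2.18, 1.40 and 2.17 CPM in notum-1 over all cells (log2 fold change -5.39 ± 0.35, adjusted p = 4.79e-05), and it was called lower in 18 of 18 classes. The matrix also holds a separate entry named rrm2. How reads were shared between these entries is not given, so the fall of rrm2.1 is not read as a fall of rrm2. si:ch211-213c4.5 stood at 43.9, 47.2, 77.0 and 45.95 CPM in WT and 18.25, 7.815, 10.2 and 5.20 CPM in notum-1 (log2 fold change -2.37 ± 0.36, adjusted p = 0.00124) and was lower in 20 of 20 classes. fthl29, a ferritin-like gene, fell from 26.1 to 2.635 CPM (log2 fold change -3.31 ± 0.62, adjusted p = 0.00402). The groups were apart for each of these 3 genes. msgn1, tbx6 and tfap2c were also called lower in 16 or more classes. For tbx6 and msgn1 these were mostly classes below the gene's all-cells level. tbx6 was lower in 16 of 16 such classes and in 1 of 5 expressing ones, and msgn1 in 14 of 16 and in 4 of 5. Some classes below that level still held much of the transcript. msgn1 averaged 1286 CPM in WT and 443 CPM in notum-1 in NMP, and tbx6 124.5 and 83.6 CPM in PZ 2. Values of tfap2c in skin classes are given below.

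Every tested class responded, and PZ 1, PSM and NMP had the largest shares of genes called. The number of genes called ran from 311 of 2281 (13.6%) in mucus producing cells to 3584 of 9368 (38.3%) in PZ 1, followed by PSM with 37.9%, NMP with 36.9%, posterior neuronal with 35.6% and PZ 2 with 35.4%. Dorsal neuronal (31.2%), epidermis 4 (30.9%), anterior neuronal (30.6%), epidermis 3 (29.6%), epidermis 1 and posterior adaxial (28.6% each), PZ 3 (27.1%) and anterior adaxial (26.8%) came next. Below them lay the pax2 (25.0%), lmo2 (24.7%) and hand2 (23.1%) classes of lateral plate mesoderm, differentiated neuronal (23.4%), posterior (23.3%) and anterior notochord (22.6%) and intermediate mesoderm (21.3%). Among each class's expressed genes PSM had 44.1% called (942 higher and 212 lower), PZ 1 43.6%, PZ 2 42.9% and NMP 38.7%, against 19.0% in intermediate mesoderm and 11.9% in mucus producing cells. Over all genes tested in PSM, 1763 were higher and 1500 lower. A gene that changes can pass the expressing level through 1 group alone, so these shares are given as values and do not rank the classes. Larger classes hold more UMIs and so allow more calls. With every library of 19 classes thinned to 300000 UMIs, PZ 2 had 29.1% of genes called, PSM 28.7%, PZ 1 28.15% and epidermis 4 28.1%. At the other end were anterior notochord with 18.8% and intermediate mesoderm with 18.7%, so the highest class exceeded the lowest by 1.56 times. For expressed genes at that depth, with the same limit, the shares ran from 15.5% in anterior notochord to 32.6% in PSM. With 39540 UMIs, which admits all 21 classes, epidermis 3 led with 32.5% and mucus producing cells were last with 18.7%, a ratio of 1.74. PZ 3 (27.3%) and PZ 1 (26.9%) then ranked 3 and 4 of the 21. PSM (24.3%), NMP (23.9%) and PZ 2 (22.3%) ranked 13, 15 and 17, so the order among classes depends on the depth chosen. It also depends on the measure: by the median absolute log2 fold change at 300000 UMIs, epidermis 4 led with 0.503, followed by epidermis 3 (0.463), differentiated neuronal and epidermis 1 (0.459 each), while PZ 2 (0.445), PZ 1 (0.444), PSM (0.435) and NMP (0.422) ranked 6, 7, 9 and 13 of 19 and intermediate mesoderm was last (0.393). The ratio of 1.74 in the percent called at 39540 UMIs became 3.96, 4.73 and 3.42 without WT MG2, WT DJ1 or WT DJ2.

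**Figure D2:**
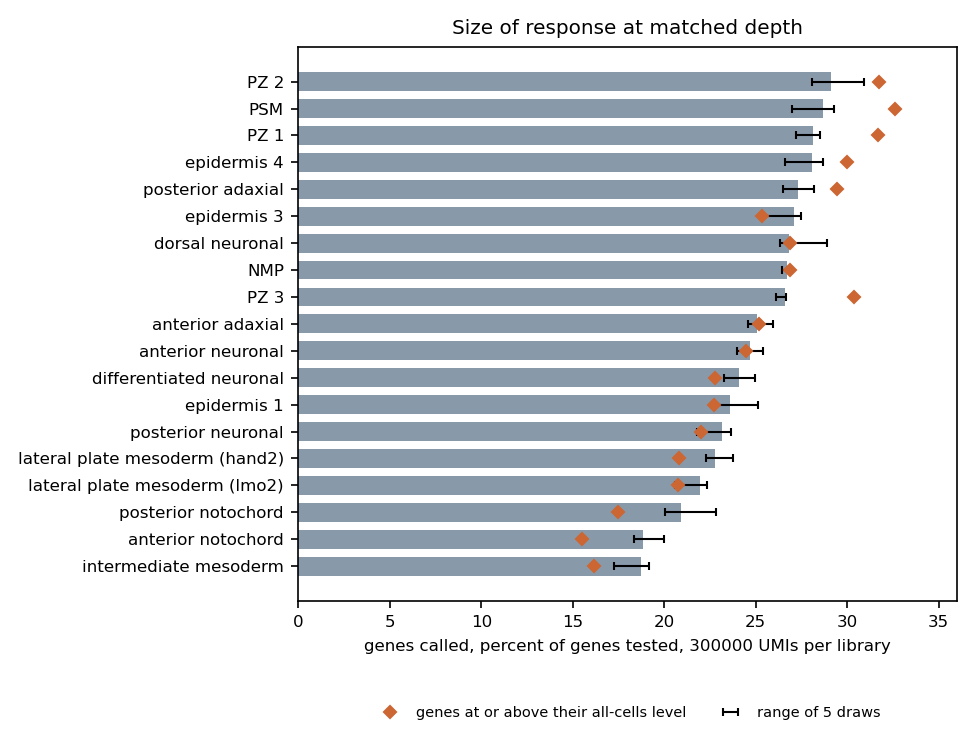
Percent of tested genes called in each of 19 classes after thinning every library of a class to 300000 UMIs. Bars are the median of 5 draws with their range, and diamonds count only genes at or above their all-cells level in the class. PZ 2, PSM and PZ 1 are at the top and intermediate mesoderm and anterior notochord at the bottom.

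Genes of a list of Wnt feedback and target genes were called lower more often than higher, but not evenly. Of 24 tested genes of the list, 7 were lower and 3 higher over all cells, with a median of -0.26 against 0.0029 for all genes. Of all genes 17.8% were lower and 21.3% higher. In expressing classes 40 of 144 gene and class pairs were lower and 9 higher, beside 9.89% lower and 18.8% higher among all expressing pairs. Where both groups passed the level, 35 of 128 pairs of the list were lower and 8 higher. The list also holds msgn1, tbx6, tbx16 and tbxta, which are counted again among genes of mesodermal progenitors below. Of these, msgn1, tbx6 and tbx16 were lower over all cells, so the counts do not separate feedback genes from other targets. The genes called higher included dkk1a (log2 fold change 2.61 ± 0.49, adjusted p = 0.00275) and znrf3 (1.08 ± 0.25, adjusted p = 0.00758). In notum-1 their means were 2.293 and 1.096 CPM. nkd1, which codes for a feedback inhibitor that acts on Dishevelled, was lower in 10 of its 12 expressing classes, although leaving out 1 library ended the calls in anterior notochord (WT MG2, WT DJ1 or notum-1 MG1, adjusted p up to 0.0572) and dorsal neuronal cells (WT MG1, WT MG2, WT DJ2 or notum-1 DJ1, up to 0.0820). In posterior neuronal cells it stood at 66.9, 58.6, 64.7 and 70.32 CPM in WT and 31.5, 27.9, 25.8 and 22.1 CPM in notum-1 (log2 fold change -1.28 ± 0.14, adjusted p = 4.86e-05), so the groups were apart. axin2, a scaffold of the complex that degrades beta-catenin and a widely used Wnt readout, stood at 39.7, 36.6, 36.9 and 34.6 CPM in WT and 26.9, 24.6, 24.6 and 15.24 CPM in notum-1 over all cells (log2 fold change -0.69 ± 0.17, adjusted p = 0.00934). It was lower in 6 of 10 expressing classes, with the strongest fall in posterior notochord, at 44.4, 62.4, 63.35 and 52.8 CPM in WT and 32.7, 19.2, 27.7 and 16.75 CPM in notum-1 (log2 fold change -1.18 ± 0.22, adjusted p = 0.00155). Its calls were lost in NMP without any 1 of the WT libraries (adjusted p up to 0.0761) and in PZ 1 without WT MG1, WT DJ1, WT DJ2 or notum-1 MG2 (up to 0.0760). In dorsal neuronal cells axin2 was not called (log2 fold change -0.38 ± 0.21).

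dkk1b, which codes for a secreted Wnt inhibitor that blocks Lrp co-receptors, fell in some classes and rose in another. In PZ 2 it stood at 259.6, 162, 204 and 169 CPM in WT and 6.39, 28.4, 13.95 and 15.16 CPM in notum-1 (log2 fold change -3.70 ± 0.29, adjusted p = 1.57e-06) and in PZ 1 at 157, 109, 141 and 111 CPM in WT and 14.9, 27.8, 17.5 and 17.6 CPM in notum-1 (log2 fold change -2.75 ± 0.20, adjusted p = 1.45e-06). It was also lower in PZ 3 (log2 fold change -2.21 ± 0.29) and posterior notochord (-1.84 ± 0.19). Posterior neuronal cells gave -0.18 ± 0.18, which was not called. In anterior neuronal cells dkk1b rose, with 27.3, 17.4, 25.7 and 19.4 CPM in WT and 50.7, 59.4, 57.65 and 80.3 CPM in notum-1 (log2 fold change 1.47 ± 0.19, adjusted p = 9.88e-05). Those cells held 41.0% of the all-cells dkk1b level in WT and 372.0% in notum-1, so they pass as an expressing class through notum-1 alone, and their difference from other classes is not read as a test. PZ 2 held 362.9% of that level in WT and 95.8% in notum-1, so it passes through WT alone. dkk1a, a related gene, rose in epidermis 1, its 1 expressing class, from 3.02 to 27.5 CPM.

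Some transcription factor genes of the pathway were not called in their expressing classes. sp5l, an Sp-family target of Wnt, was called in 0 of its 6 expressing classes, with log2 fold changes of -0.16 to 0.25. It was lower in 9 of 14 classes below its all-cells level. lef1, which codes for a factor that carries the Wnt signal to DNA, was called in 0 of 9. cdx4, a caudal-type factor of the posterior body, was called in 0 of 9 as well, and in NMP its log2 fold change was 0.15 ± 0.20. With scaling to the library total alone, sp5l and lef1 were called lower over all cells. tcf7, another factor of the same family as lef1, could be tested in 1 of them, PZ 1, where it was not called.

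**Figure D3:**
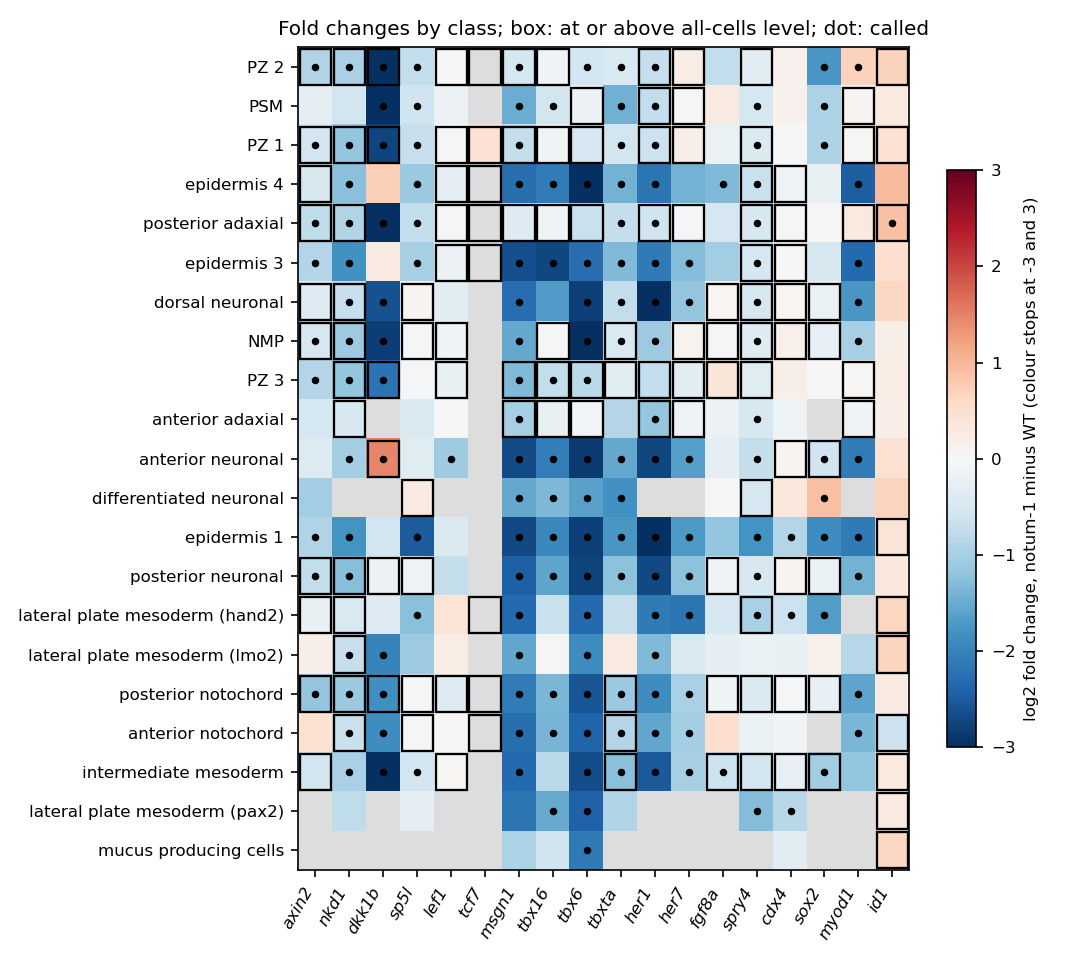
Log2 fold change (notum-1 minus WT) of 18 genes in 21 classes, with the colour scale ending at -3 and 3 and grey where the gene was not tested. Boxes mark classes at or above the gene's all-cells level and dots mark called genes. nkd1 is called in 10 of 12 boxed classes, dkk1b falls in 4 and rises in anterior neuronal cells, and lef1, cdx4 and her7 have no called boxed class.

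Of 11 tested Wnt ligand genes, 4 were higher and 1 lower over all cells, beside 21.3 and 17.8% of all genes. With scaling to the library total 2 were higher and 1 lower, and the median fell from 0.49 to 0.083. Of these calls, wnt9a, wnt3a and wnt7ba (higher) and wnt5a (lower) had no group mean above 1.35 CPM, and the groups overlapped for wnt7ba. Of 28 expressing pairs, 13 were higher and 2 lower, beside 18.8 and 9.89% of all expressing pairs. wnt5b, a ligand known mostly for beta-catenin-independent signalling and cell movement, was higher in all 9 of its expressing classes. In NMP it stood at 25.1, 25.5, 25.2 and 31.4 CPM in WT and 40.1, 72.6, 58.4 and 98.0 CPM in notum-1 (log2 fold change 1.32 ± 0.22, adjusted p = 0.000523). wnt11, another ligand of that kind, was higher in 1 and lower in 1 of its 4 expressing classes. The fall was in anterior notochord, with 444, 775.5, 839 and 564 CPM in WT and 339.6, 288, 398 and 125 CPM in notum-1 (log2 fold change -1.16 ± 0.30, adjusted p = 0.0169). The groups were apart for both genes, and the WT libraries of wnt11 differed among themselves more than those of wnt5b.

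Among 24 genes of receptors and secreted inhibitors, 3 were higher and 6 lower over all cells, beside 21.3 and 17.8% of all genes. Of 115 expressing pairs 13 were higher and 12 lower, beside 18.8 and 9.89% of all expressing pairs, so the list as a whole showed no excess of higher pairs and lower pairs near that share. The receptor gene fzd7b was lower in 4 of 6 expressing classes, and in PZ 1 it fell from 126 to 86.1 CPM (log2 fold change -0.55 ± 0.12, adjusted p = 0.00271). fzd7a, its near relative, rose in epidermis 1 from 109 to 226 CPM (log2 fold change 1.04 ± 0.22, adjusted p = 0.00348). sfrp1b, a secreted Wnt-binding protein, was lower over all cells at 4.84, 3.91, 3.94 and 5.10 CPM in WT and 1.905, 1.47, 2.18 and 1.68 CPM in notum-1 (log2 fold change -1.29 ± 0.18, adjusted p = 0.000645). dact2, which codes for a Dishevelled-binding protein, rose in 7 of 8 expressing classes, from 78.3 to 180.1 CPM in anterior notochord (log2 fold change 1.22 ± 0.19, adjusted p = 0.000549). None of these groups overlapped.

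Genes of mesodermal progenitors fell or were not called. Of 19 tested, 8 were lower and 0 higher over all cells, beside 17.8 and 21.3% of all genes. In expressing classes 23 of 92 pairs were lower and 1 higher. Of all expressing pairs 9.89% were lower and 18.8% higher. msgn1, a bHLH factor that progenitors need to become presomitic mesoderm, was lower in 4 of its 5 expressing classes. The fall was strongest in PZ 3, at 2444, 2112, 2879 and 3090.0 CPM in WT and 1065, 999.7, 1016 and 1094 CPM in notum-1 (log2 fold change -1.33 ± 0.17, adjusted p = 9.67e-06), beyond the mean of its other 4 expressing classes by -0.72 ± 0.11 (limma, adjusted p = 0.00287). It was -0.71 ± 0.18 in PZ 1 and -0.53 ± 0.17 in PZ 2, where the call was lost without WT DJ1 or without WT DJ2 (adjusted p up to 0.0699). Posterior adaxial cells, with the highest WT level, gave -0.40 ± 0.18 and were not called.

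PZ 3 was also the class in which tbx16, a T-box factor of mesodermal progenitors, fell. There it stood at 451, 464, 441 and 442 CPM in WT and 269.5, 290.5, 264 and 255.5 CPM in notum-1 (log2 fold change -0.74 ± 0.14, adjusted p = 0.000465), while its other 5 expressing classes lay between -0.22 and -0.05 with no call. The difference between PZ 3 and those 5 was -0.67 ± 0.096 (limma, adjusted p = 0.000447). tbx6, a T-box factor of presomitic mesoderm, likewise fell in PZ 3, at 162, 203, 196 and 174 CPM in WT and 146, 96.8, 95.6 and 93.7 CPM in notum-1 (log2 fold change -0.80 ± 0.17, adjusted p = 0.00136). In PSM, its log2 fold change was -0.17 ± 0.13, and in anterior adaxial cells, which had the highest level, -0.075 ± 0.14, neither of them called. Its mean also fell, without a call, from 141 to 99.1 CPM in PZ 1 and from 141 to 89.5 CPM in posterior adaxial cells. In PZ 2, which lay below its all-cells level, it was called lower, from 124.5 to 83.6 CPM. No difference between PZ 3 and these classes is claimed for tbx6. In PZ 3 itself, MG1 of notum-1 lay close to the lowest WT library.

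tbxta, the zebrafish Brachyury gene no tail, fell in notochord, intermediate mesoderm and NMP. In anterior notochord it stood at 1546, 1643, 1542 and 1640.0 CPM in WT and 836.5, 1011, 911.5 and 710.1 CPM in notum-1 (log2 fold change -0.87 ± 0.15, adjusted p = 0.00104), in posterior notochord the log2 fold change was -1.12 ± 0.17, and in intermediate mesoderm the libraries stood at 434.5, 392, 386 and 446 CPM in WT and 225, 157, 204 and 111 CPM in notum-1 (log2 fold change -1.25 ± 0.19, adjusted p = 0.000386). In NMP the change was -0.46 ± 0.14, and its call was lost without WT MG2 or without WT DJ2 (adjusted p up to 0.0591). Over all cells tbxta was not called (log2 fold change -0.59 ± 0.23), except with scaling to the library total. The same intermediate mesoderm cells had less sox2, a SoxB1 factor of neural progenitors, at 158, 219, 156 and 143 CPM in WT and 105, 70.7, 107 and 43.9 CPM in notum-1 (log2 fold change -1.03 ± 0.24, adjusted p = 0.00646), and less fgf8a, a posterior FGF ligand, at 407, 405, 317 and 290.4 CPM in WT and 217, 261, 209.9 and 217 CPM in notum-1 (log2 fold change -0.65 ± 0.16, adjusted p = 0.00785). In NMP neither sox2 (-0.25 ± 0.13) nor fgf8a (-0.062 ± 0.18) was called. fgf4, another FGF ligand, was lower in all 4 of its expressing classes, at 301, 328.5, 277 and 306 CPM in WT and 141, 156, 127 and 64.1 CPM in notum-1 in posterior notochord (log2 fold change -1.31 ± 0.21, adjusted p = 0.000665).

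**Figure D4:**
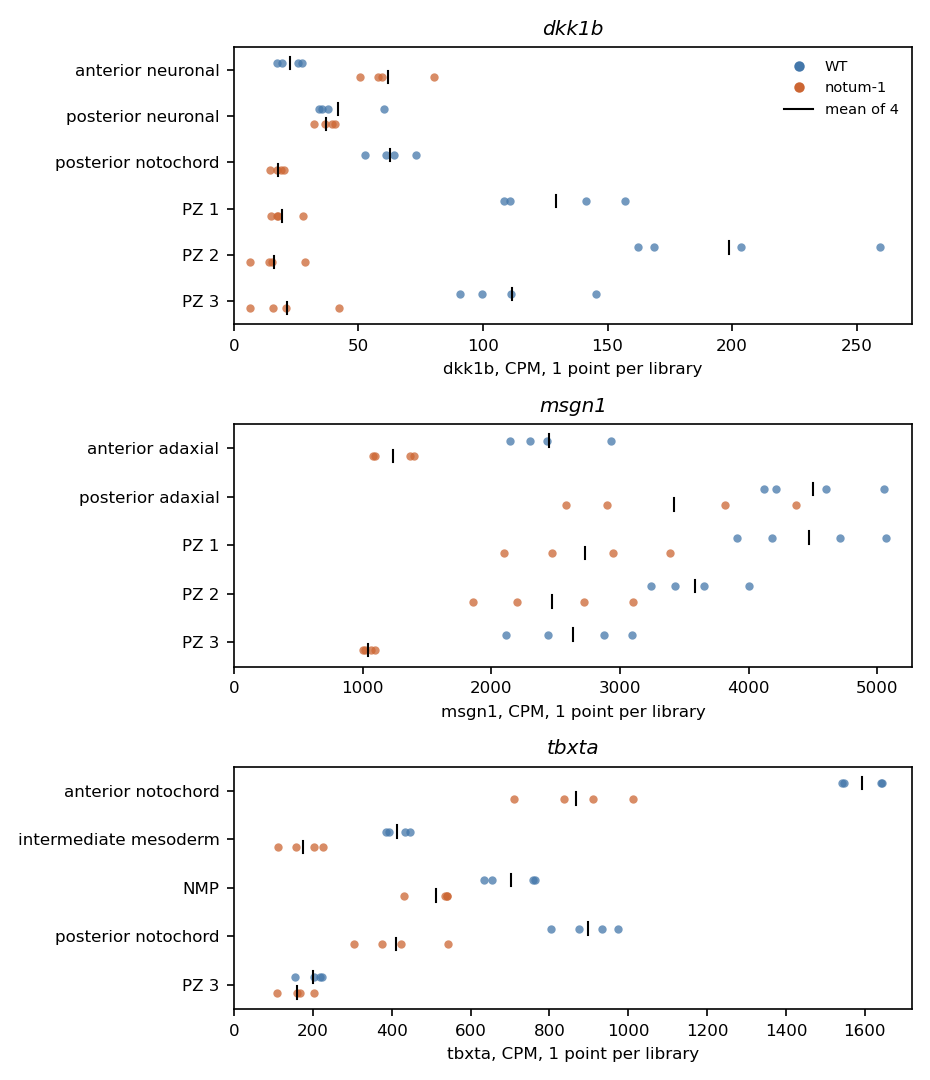
CPM of dkk1b, msgn1 and tbxta in their expressing classes, 1 point per library. dkk1b is lower in PZ 1, PZ 2, PZ 3 and posterior notochord and higher in anterior neuronal cells of notum-1, msgn1 falls most in PZ 3, and tbxta is lower in notochord and intermediate mesoderm.

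Notch and segmentation clock genes were called lower more often than higher. Of 24 tested, 8 were lower and 4 higher over all cells, beside 17.8 and 21.3% of all genes. In expressing classes 51 of 158 pairs were lower and 6 higher. Of all expressing pairs 9.89% were lower and 18.8% higher. her1, an oscillating repressor of the clock, stood at 48.5, 49.0, 44.6 and 49.0 CPM in WT and 16.5, 29.4, 14.9 and 26.3 CPM in notum-1 over all cells (log2 fold change -1.13 ± 0.21, adjusted p = 0.00261) and was lower in 5 of 6 expressing classes, most in anterior adaxial cells (log2 fold change -1.15 ± 0.24, adjusted p = 0.00249). her7, its partner in the clock, was called in 0 of 7, with 0.038 ± 0.22 in PSM and 0.20 ± 0.21 in PZ 1. The difference between the genes was not tested. The her1 calls were lost in PZ 1 without WT MG2 or notum-1 DJ1 (adjusted p up to 0.0712), and in posterior adaxial cells without any 1 library other than notum-1 MG2 or DJ2 (up to 0.0866). her2, a related hairy gene, was lower in 7 of 8 and stood at 335, 297, 471 and 533 CPM in WT and 144, 153, 163 and 145 CPM in notum-1 in posterior notochord (log2 fold change -1.43 ± 0.18, adjusted p = 0.0001).

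Delta ligand dlc was lower in 5 of 8 expressing classes, and in PZ 3 it stood at 157, 189.9, 178 and 154.5 CPM in WT and 95.1, 89.0, 54.6 and 78.5 CPM in notum-1 (log2 fold change -1.14 ± 0.18, adjusted p = 7.38e-05). nrarpa, a feedback inhibitor switched on by Notch, was lower in 6 of 8 and fell in intermediate mesoderm from 227 to 91.4 CPM (log2 fold change -1.32 ± 0.22, adjusted p = 0.000783). her4.2, a Notch target of the neural tube, was lower in 6 of 6 expressing classes and stood at 1229, 1251, 1334 and 1268 CPM in WT and 555, 317, 715 and 393 CPM in notum-1 in dorsal neuronal cells (log2 fold change -1.36 ± 0.20, adjusted p = 0.000173), with the groups apart. her4.2 and her15.1 belong to clusters of near-identical copies, so the copy is uncertain.

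Posterior Hox genes, which give cells their place along the body axis, were called lower more often than higher. Of 19 tested genes of paralogue groups 9 to 13, 9 were lower and 1 higher over all cells, beside 17.8 and 21.3% of all genes. In expressing classes 54 of 154 pairs were lower and 10 higher, beside 9.89 and 18.8% of all expressing pairs. hoxd11a was lower in all 10 of its expressing classes. In posterior neuronal cells it stood at 172, 181, 177 and 179 CPM in WT and 79.6, 86.3, 90.02 and 77.5 CPM in notum-1 (log2 fold change -1.09 ± 0.12, adjusted p = 3.69e-05), with the highest notum-1 library below every WT library. hoxd10a fell in PZ 1 from 338 to 148.5 CPM (log2 fold change -1.19 ± 0.17, adjusted p = 0.000155) and in 6 of 8 expressing classes, and hoxa9b in 9 of 11. The hand2 class of lateral plate mesoderm had the most calls, with 7 of 13 expressed genes lower and a median of -1.025, against 0.015 for all 4184 genes it expressed, of which 8.17% were lower and 12.3% higher. There hoxa9a stood at 269, 309, 262 and 295 CPM in WT and 157, 68.35, 100.5 and 116 CPM in notum-1 (log2 fold change -1.35 ± 0.20, adjusted p = 0.000311). In the pax2 class 0 of 6 were lower and 1 higher.

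Muscle structural genes rose in anterior adaxial cells, the precursors of slow muscle. Of 22 tested somite and muscle genes, 10 were higher and 3 lower over all cells, beside 21.3 and 17.8% of all genes. With scaling to the library total 6 were higher and 10 lower. Of their 101 expressing pairs 16 were higher and 11 lower, beside 18.8 and 9.89% of all expressing pairs. desma, which codes for desmin, stood at 143, 157, 184 and 166 CPM in WT and 491.5, 484, 589 and 465 CPM in notum-1 there (log2 fold change 1.64 ± 0.14, adjusted p = 4.29e-06). The slow myosin gene smyhc1 stood at 190.3, 221, 272 and 210.1 CPM in WT and 717, 565, 669 and 371 CPM in notum-1 (log2 fold change 1.38 ± 0.19, adjusted p = 0.00019), and actin acta1b rose from 209 to 563 CPM. All notum-1 libraries exceeded all WT libraries for these genes. myod1, the bHLH factor that starts the muscle programme, was called in 0 of 5 expressing classes, with -0.10 ± 0.14 in anterior adaxial cells. foxc1a, a forkhead gene of paraxial mesoderm, went the other way, falling in 4 of 6 expressing classes and in PZ 3 from 130.4 to 66.4 CPM (log2 fold change -0.97 ± 0.17, adjusted p = 0.000253).

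In axial mesoderm and its hedgehog signal, 8 of 19 tested genes were higher and 0 lower over all cells, with a median of 0.89. Of all genes 21.3% were higher and 17.8% lower. With scaling to the library total it was 6 higher and 3 lower. shhb, a hedgehog ligand gene, stood at 5.37, 5.645, 4.74 and 3.96 CPM in WT and 19.5, 18.2, 19.8 and 15.8 CPM in notum-1 over all cells (log2 fold change 1.90 ± 0.15, adjusted p = 7.01e-05). Posterior notochord cells also made up a larger share of notum-1 libraries, as given below. Within posterior notochord, shhb rose from 133 to 296 CPM (log2 fold change 1.16 ± 0.18, adjusted p = 0.000498), foxa2, a forkhead factor of the floor plate and notochord, from 263.5 to 546.5 CPM (log2 fold change 1.05 ± 0.14, adjusted p = 0.000195), and foxj1a, the master factor of motile cilia, from 29.1 to 104 CPM (log2 fold change 1.81 ± 0.21, adjusted p = 5.74e-05). For foxj1a this rise exceeded that in its other 2 expressing classes by 1.52 ± 0.17 (limma, adjusted p = 5.16e-05). Of 47 expressing pairs of the list 9 were higher and 7 lower, beside 18.8 and 9.89% of all expressing pairs.

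FGF feedback genes were called lower more often than higher. Of 16 tested genes of the FGF response, 7 were lower and 2 higher over all cells, beside 17.8 and 21.3% of all genes. In expressing classes 34 of 119 pairs were lower and 11 higher, beside 9.89 and 18.8% of all expressing pairs. spry4 and spry2, which code for Sprouty inhibitors of FGF signalling, were lower in 7 of 12 and 5 of 10 expressing classes. Of the 7 spry4 calls, the one in the hand2 class, from 139 to 70.85 CPM (log2 fold change -0.98 ± 0.25, adjusted p = 0.0103), held when any 1 library was left out. In PZ 1, spry2 stood at 145.5, 163, 138 and 136 CPM in WT and 89.0, 87.3, 82.2 and 88.2 CPM in notum-1 (log2 fold change -0.75 ± 0.12, adjusted p = 0.000307). etv5b, an ETS factor that FGF turns on, was lower in 5 of 11. spred2b, an inhibitor of the Ras pathway, rose in 9 of 9 expressing classes and stood at 6.03, 7.175, 4.28 and 4.33 CPM in WT and 20.8, 12.7, 20.4 and 10.35 CPM in notum-1 over all cells (log2 fold change 1.56 ± 0.26, adjusted p = 0.00164). fosab, an immediate early gene on this list, fell from 117 to 23.9 CPM in epidermis 3 (log2 fold change -2.17 ± 0.34, adjusted p = 0.000649).

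BMP response genes were called higher more often than lower. Of 24 tested, 12 were higher and 1 lower over all cells, beside 21.3 and 17.8% of all genes. In expressing classes 67 of 155 pairs were higher and 8 lower. Of all expressing pairs 18.8% were higher and 9.89% lower. With scaling to the library total 3 were higher and 2 lower over all cells, and the median fell from 0.55 to 0.18. tbx2b, a T-box target of BMP, stood at 31.8, 35.7, 33.1 and 35.9 CPM in WT and 116, 157, 152 and 149.8 CPM in notum-1 in epidermis 1 (log2 fold change 2.07 ± 0.17, adjusted p = 5.85e-06). In the same class 12 of 21 expressed genes of the list were higher and 0 lower (16.5 and 11.6% of all 3780 genes it expressed), smad6a, which codes for an inhibitory Smad, rose from 16.9 to 55.7 CPM, and bmp7a, a ligand gene, rose from 28.2 to 104 CPM. ved, a ventral homeobox gene, was higher in 7 of 8 expressing classes, at 496, 384, 397 and 607 CPM in WT and 1047, 1166, 925 and 1346 CPM in notum-1 in PZ 2 (log2 fold change 1.25 ± 0.17, adjusted p = 2.74e-05). bambia, a pseudoreceptor that BMP induces, was higher in 8 of 9. In anterior notochord 2 of 8 expressed genes of the list were higher and 3 lower, and the difference from other classes was not tested.

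Retinoic acid genes changed in both directions, receptor genes included. rarga, a receptor gene, was higher in all 9 expressing classes, at 59.96, 53.1, 53.3 and 53.3 CPM in WT and 113, 111, 127 and 146.5 CPM in notum-1 in NMP (log2 fold change 1.18 ± 0.14, adjusted p = 2.73e-05). aldh1a2, which codes for the enzyme that makes retinoic acid, was higher in PSM at 93.0, 109.7, 97.8 and 99.6 CPM in WT and 217, 194, 190.5 and 246 CPM in notum-1 (log2 fold change 1.08 ± 0.13, adjusted p = 3.83e-05). crabp2a, a retinoic acid-binding protein gene, was lower over all cells at 173, 170.4, 163 and 154 CPM in WT and 116, 98.8, 85.7 and 95.3 CPM in notum-1 (log2 fold change -0.74 ± 0.12, adjusted p = 0.00131), and the receptor gene raraa was lower in 4 of 9 expressing classes, in the hand2 class from 489 to 245 CPM (log2 fold change -0.9951 ± 0.16, adjusted p = 0.000547). Of 12 tested genes, 5 were higher and 1 lower over all cells, beside 21.3 and 17.8% of all genes. With scaling to the library total 2 were higher and 5 lower, so the direction of the list as a whole flips with that choice. Of the 75 expressing pairs 21 were higher and 10 lower, beside 18.8 and 9.89% of all expressing pairs.

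Of 26 neural genes, 6 were higher and 5 lower over all cells, shares close to the 21.3 and 17.8% of all genes. Of their 83 expressing pairs 15 were higher and 17 lower, beside 18.8 and 9.89% of all expressing pairs. With scaling to the library total 0 were higher and 9 lower. sox19b, a SoxB1 gene of neural progenitors, stood at 173, 221, 181 and 176.5 CPM in WT and 97.85, 78.0, 81.4 and 81.35 CPM in notum-1 in anterior neuronal cells (log2 fold change -1.15 ± 0.14, adjusted p = 5.48e-05). sox2 fell there too (log2 fold change -0.60 ± 0.16, adjusted p = 0.0121) but was not called in dorsal neuronal cells, posterior neuronal cells or NMP. neurog1, a proneural bHLH gene, rose in anterior neuronal cells from 224.5 to 343 CPM (log2 fold change 0.61 ± 0.13, adjusted p = 0.00298), a call that was lost with scaling to the library total (log2 fold change 0.15).

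Of 24 tested blood and lateral plate genes, 9 were lower and 2 higher over all cells, beside 17.8 and 21.3% of all genes. Of their 58 expressing pairs 4 were lower and 16 higher, beside 9.89 and 18.8% of all expressing pairs. lmo2, a cofactor gene of blood and vessel precursors, was lower over all cells at 433, 349, 492 and 381 CPM in WT and 298, 284.5, 284 and 276 CPM in notum-1 (log2 fold change -0.53 ± 0.12, adjusted p = 0.00826) and in 0 of its 3 expressing classes. tal1, its partner, was likewise lower over all cells (log2 fold change -0.79 ± 0.15, adjusted p = 0.00276) and in 0 of 1. The lmo2 class held 3.40% of cells in WT and 2.59% in notum-1, with overlapping groups (two-sided exact permutation p = 0.0571). Whether this share bears on the levels over all cells was not tested. Embryonic globin hbbe1.1 rose in intermediate mesoderm, at 5.39, 4.204, 6.63 and 2.11 CPM in WT and 45.4, 47.2, 43.1 and 164 CPM in notum-1 (log2 fold change 4.06 ± 0.60, adjusted p = 0.00181), although reads of the similar globin copies may be shared among them.

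Of 21 skin genes, 2 were higher and 0 lower over all cells, beside 21.3 and 17.8% of all genes. In expressing classes 12 of 60 pairs were lower and 5 higher. Of all expressing pairs 9.89% were lower and 18.8% higher. With scaling to the library total 0 were higher and 3 lower over all cells. In epidermis 3 the claudin gene cldni stood at 4002, 4590.0, 4416 and 4727 CPM in WT and 1834, 1596, 2622 and 2598 CPM in notum-1 (log2 fold change -1.03 ± 0.18, adjusted p = 0.000754) and the keratin gene krt5 fell from 256 to 114 CPM (log2 fold change -1.14 ± 0.21, adjusted p = 0.000927). Adhesion and matrix genes rose more often than they fell, 10 against 3 of 32 over all cells and 61 against 18 of 200 expressing pairs. The shares of all genes were 21.3 against 17.8%, and of all expressing pairs 18.8 against 9.89%. With scaling to the library total it was 8 against 12. cdh11, a cadherin gene of mesenchyme, stood at 33.3, 44.7, 50.4 and 56.0 CPM in WT and 168, 340.5, 165 and 202 CPM in notum-1 in the hand2 class (log2 fold change 2.22 ± 0.25, adjusted p = 3.21e-05) and rose in 5 of 6 expressing classes. cdh6 rose in 6 of 6, and lama1, a laminin chain gene, in 7 of 7. The chemokine gene cxcl12a was higher in 3 and lower in 2 of 8 expressing classes, and in the hand2 class it fell, at 1338, 2368, 1916 and 1899 CPM in WT and 944.5, 953, 926 and 999 CPM in notum-1 (log2 fold change -0.98 ± 0.17, adjusted p = 0.000868).

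Cell cycle genes were called in 4 of 30 cases over all cells, 2 in each direction, beside 21.3% higher and 17.8% lower among all genes. With scaling to the library total 1 was higher and 17 lower. Of their 274 expressing pairs 33 were higher and 11 lower, beside 18.8 and 9.89% of all expressing pairs. cenpf, a kinetochore gene, was higher in 9 of 11 expressing classes and in PZ 1 stood at 25.8, 28.4, 43.4 and 28.5 CPM in WT and 89.8, 67.5, 90.95 and 59.45 CPM in notum-1 (log2 fold change 1.29 ± 0.19, adjusted p = 0.000205). ccne2, a cyclin of entry into S phase, was lower in 6 of 7, in NMP at 56.7, 55.25, 59.9 and 60.9 CPM in WT and 31.5, 30.2, 33.0 and 42.4 CPM in notum-1 (log2 fold change -0.76 ± 0.15, adjusted p = 0.00104).

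Among 18 heat shock genes 1 was higher and 2 lower over all cells, beside 21.3 and 17.8% of all genes. Of their 134 expressing pairs 21 were higher and 5 lower, beside 18.8 and 9.89% of all expressing pairs. hspe1, a mitochondrial chaperonin gene, fell in the pax2 class from 1242 to 335 CPM (log2 fold change -1.86 ± 0.23, adjusted p = 8.33e-05). Of 20 oxygen response and glycolysis genes, 6 were lower and 1 higher over all cells, beside 17.8 and 21.3% of all genes. Of their 99 expressing pairs 24 were lower and 3 higher, beside 9.89 and 18.8% of all expressing pairs. pfkfb4b, which controls flux into glycolysis, was lower in 10 of 11 expressing classes, and over all cells it stood at 78.3, 76.0, 80.8 and 86.1 CPM in WT and 37.25, 39.5, 30.4 and 36.8 CPM in notum-1 (log2 fold change -1.16 ± 0.11, adjusted p = 0.000189). gapdhs, a glyceraldehyde-phosphate dehydrogenase gene, was lower in 6 of 7. The groups did not overlap for either gene over all cells.

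To ask which changes belong to a class, the fold change of each gene in a class was set against its mean in the other classes. Against all 20 other tested classes, 7200 of 218757 pairs differed (3.29%), 4866 upwards (2.22%) and 2334 downwards (1.07%). Most were in epidermis 1 (993), PSM (657) and anterior notochord (628), and fewest in PZ 3 (123). This edgeR fit took the class sums of a library as separate observations, so its p-values do not measure the spread between libraries. With limma on 1 difference per library, 3685 pairs differed. The 12 with the smallest p were all upwards, in epidermis 1, intermediate mesoderm and anterior notochord, and only 2 of them, dspa and myh9a in epidermis 1, were called higher within the class. For tfap2c, a skin and neural crest factor, epidermis 1 gave no call (log2 fold change -0.026 ± 0.18, adjusted p = 0.931), while 16 of the 18 classes tested were called lower. Its WT means were 230, 374 and 331 CPM in epidermis 1, 3 and 4, against 63.7 CPM over all cells. Epidermis 3 and 4 gave -0.53 ± 0.16 and -0.48 ± 0.15, against a median of -2.05 over the classes tested, so the large falls lay outside these skin classes. In intermediate mesoderm afp4.1, stood at 4.04, 7.36, 263 and 257 CPM in WT and 8.11, 8463, 263 and 165 CPM in notum-1, and its difference of 5.93 became 2.98 without notum-1 MG2.

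Compared only with its other expressing classes, a class differed in 1999 of 96203 pairs (2.08%), 1162 upwards (1.21%) and 837 downwards (0.87%), by limma on differences within libraries. PSM had the largest share, 186 of 2546 (7.31%), followed by PZ 2 with 110 (4.41%), epidermis 1 with 170 (4.19%) and NMP with 111 (2.85%). PZ 3 had 30 (0.849%) and mucus producing cells 25 (0.457%). The next counts take only genes also called the same way within the class, with groups apart and at least 50 CPM in the higher group. PSM then had 88 (82 higher and 6 lower), epidermis 1 had 52 (26 and 26), PZ 2 had 45 (41 and 4), and the epidermis 3 and 4 classes had 36 each, of which 31 and 34 were lower. The differences from other expressing classes given next are for mesoderm, notochord, neuronal and skin cells. Each is of a class that passed the expressing level in both groups, and each kept its call when any 1 library was left out. Values marked log2 fold change are for the class alone and are not such differences. Among them, the classes given for id2a, apela, spag6 and myca passed the level in 1 group alone. The classes compared with could pass through 1 group alone, as PSM did for rem1, NMP for meig1 and the lmo2 class for cebpb. For rem1, meig1 and cebpb the difference is therefore given as a value and not read as a test.

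In mesoderm, rem1, a small GTPase gene, was called in opposite directions in different classes. It rose in PSM, at 32.8, 28.5, 22.6 and 24.8 CPM in WT and 46.8, 60.6, 51.2 and 84.4 CPM in notum-1 (log2 fold change 1.16 ± 0.19, adjusted p = 0.000418), and fell in PZ 2, at 83.8, 112, 88.5 and 89.0 CPM in WT and 51.75, 47.6, 40.1 and 51.8 CPM in notum-1 (-0.75 ± 0.12 against its other expressing classes), and in PZ 1, from 79.9 to 46.1 CPM. A tubulin gene, tuba8l2, rose more in PSM than elsewhere, from 611 to 1724 CPM (difference 0.49 ± 0.044), and znfl1h, a zinc finger gene, fell more there, from 788.5 to 384 CPM (-0.32 ± 0.053). In PZ 3, myf5, a muscle bHLH gene, fell by more than in its other expressing classes, at 779, 781, 751 and 831 CPM in WT and 425, 439.7, 398 and 649 CPM in notum-1 (-0.50 ± 0.092, adjusted p = 0.00451). Anterior adaxial cells gained insb, an insulin gene, at 19.0, 17.6, 16.3 and 20.4 CPM in WT and 201, 248, 172 and 113 CPM in notum-1 (1.47 ± 0.19, adjusted p = 0.000271). Posterior adaxial cells, at 59.3% of its all-cells level, were not among the classes compared and rose by 3.22 ± 0.50, close to the 3.30 ± 0.25 of anterior ones. tob1a, an antiproliferative gene, fell most in NMP, at 382, 408, 402.5 and 378 CPM in WT and 205.5, 204, 197 and 176 CPM in notum-1 (-0.56 ± 0.071).

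In posterior notochord foxb1b, a forkhead gene, rose from 77.75 to 105.5 CPM and differed from its other 5 expressing classes by 1.81 ± 0.11 (adjusted p = 1.13e-08), with 0.44 ± 0.15 for posterior notochord itself. In anterior notochord crip3, a LIM domain gene, stood at 58.2, 54.9, 62.0 and 51.2 CPM in WT and 12.8, 10.4, 14.1 and 12.1 CPM in notum-1 (-1.65 ± 0.20), and fhl1b, another LIM gene, rose from 36.75 to 135 CPM (2.36 ± 0.20). In the pax2 class meig1 fell from 172 to 82.2 CPM (-1.88 ± 0.22) and spag6, which codes for a protein of the ciliary axoneme, from 54.7 to 18.2 CPM (log2 fold change -1.40 ± 0.41, adjusted p = 0.0199), while in NMP meig1 rose from 28.5 to 72.2 CPM (log2 fold change 1.35 ± 0.14, adjusted p = 1.33e-05). apela, which codes for a ligand of the apelin receptor, rose in the pax2 class, at 178, 238, 201 and 222 CPM in WT and 315, 532, 384 and 501 CPM in notum-1 (log2 fold change 1.04 ± 0.19, adjusted p = 0.00132).

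Neuronal classes differed among themselves. In differentiated neuronal cells cpe, a carboxypeptidase gene that processes neuropeptides, stood at 51.5, 61.3, 58.6 and 59.0 CPM in WT and 12.5, 11.9, 15.9 and 6.03 CPM in notum-1 (-2.22 ± 0.31, adjusted p = 0.000179), and id2a, an inhibitor of bHLH factors, rose from 51.75 to 172.5 CPM (log2 fold change 1.71 ± 0.34, adjusted p = 0.00418). gch2, an enzyme gene for pteridine pigment, fell in that class, with 107, 125, 102.5 and 146.5 CPM in WT and 16.65, 11.9, 5.31 and 12.1 CPM in notum-1 (log2 fold change -3.45 ± 0.31, adjusted p = 1.44e-05). In anterior neuronal cells draxin, an axon guidance cue, fell from 92.55 to 44.8 CPM (-0.84 ± 0.12), and sp8b, an Sp factor, rose from 36.7 to 55.7 CPM (1.11 ± 0.13). stm, which codes for the otolith protein starmaker, went down in dorsal neuronal cells, from 113 to 60.2 CPM (-1.64 ± 0.14), and up in intermediate mesoderm, from 113 to 354 CPM (1.31 ± 0.15).

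In skin, cebpb, a C/EBP transcription factor gene, stood at 113, 67.5, 85.1 and 91.7 CPM in WT and 18.6, 8.66, 22.3 and 14.4 CPM in notum-1 in epidermis 1 (-1.98 ± 0.21 against its other expressing classes) and fell in epidermis 3 as well, from 85.5 to 23.3 CPM. In the lmo2 class it rose, with 9.81, 4.76, 10.8 and 12.6 CPM in WT and 64.25, 43.5, 32.8 and 60.7 CPM in notum-1 (log2 fold change 2.31 ± 0.27, adjusted p = 3.69e-05). myca, a Myc gene, fell in epidermis 1 from 79.1 to 10.85 CPM (log2 fold change -2.80 ± 0.26, adjusted p = 1.41e-05). emx2, a homeobox gene, fell within epidermis 1 at 184, 175.5, 141 and 152 CPM in WT and 12.9, 41.85, 14.9 and 15.7 CPM in notum-1 (log2 fold change -3.12 ± 0.29, adjusted p = 1.87e-05). col1a1a, a collagen gene, fell in the hand2 class, at 116, 46.9, 61.2 and 47.8 CPM in WT and 7.80, 2.58, 1.88 and 0.7125 CPM in notum-1 (log2 fold change -4.47 ± 0.49, adjusted p = 6.47e-05), and in the pax2 class, at 98.9, 71.0, 88.0 and 138 CPM in WT and 3.705, 4.12, 2.56 and 4.25 CPM in notum-1 (log2 fold change -4.71 ± 0.44, adjusted p = 2.39e-06).

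Shares of cells moved alongside. Intermediate mesoderm made up 3.735, 3.71, 4.86 and 4.55% of cells in WT and 1.88, 1.91, 2.04 and 2.04% in notum-1, 0.467 times the WT share, and posterior notochord 2.96, 3.22, 2.285 and 2.01% of cells in WT and 5.235, 6.61, 4.98 and 4.23% in notum-1, 2.01 times. Neither pair of groups overlapped. PZ 1 went from a mean of 12.4 to 9.72%, PZ 2 from 6.56 to 4.55%, epidermis 3 from 4.38 to 3.12% and dorsal neuronal from 4.64 to 4.13%. Posterior neuronal went from 10.1 to 14.2%, anterior neuronal from 5.10 to 6.92% and anterior adaxial from 2.33 to 4.17%. For these 9 classes the groups were apart and the two-sided exact permutation p was 0.0286, the smallest possible, or 0.0794 after Benjamini-Hochberg adjustment over 25 classes, so none passes 0.05. NMP stood at 8.17 and 8.19%, and PSM at 9.77 and 8.40% (exact permutation p = 0.171). Shares sum to the whole, so the classes are not independent, and when both groups were held to the same cell limits, 4 of these 9 classes kept groups that did not overlap: intermediate mesoderm, anterior adaxial, posterior neuronal and dorsal neuronal.

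**Figure D5:**
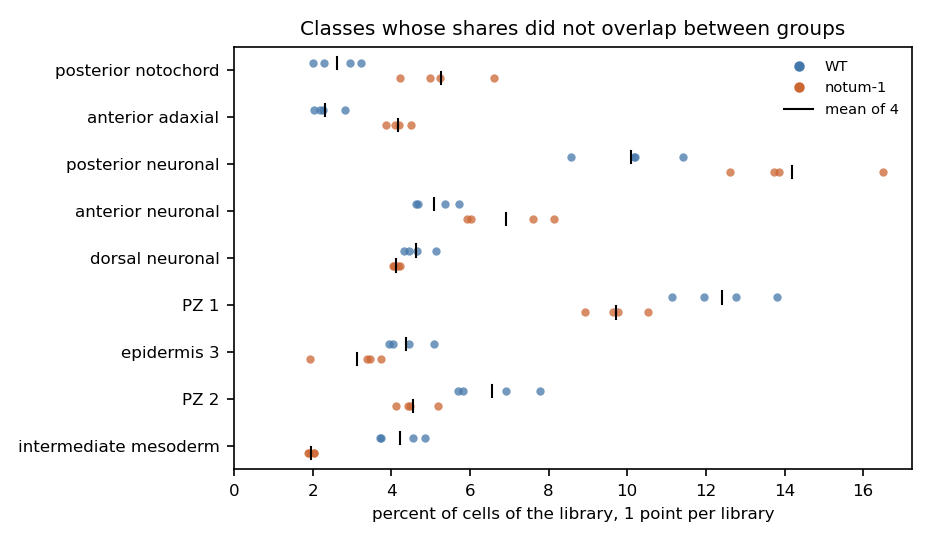
Percent of each library's cells in the 9 classes whose groups do not overlap, 1 point per library. Intermediate mesoderm falls from a mean of 4.21 to 1.97% and posterior notochord rises from 2.62 to 5.26%.

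Smaller classes were tested with fewer cells, down to 8 in a library for epidermis 2, 7 for EVL and 3 for Kupffer's vesicle. Epidermis 2 had 1449 of 5480 genes called (26.4%), 686 higher and 763 lower. EVL had 74 of 1735 (4.27%), 46 higher and 28 lower, and Kupffer's vesicle 169 of 606 (27.9%), 109 higher and 60 lower. notum1a was called higher in epidermis 2 (log2 fold change 8.02 ± 0.68, adjusted p = 0.000146) and in EVL, where the libraries stood at 42.3, 0, 0 and 0 CPM in WT and 265.5, 221.5, 176 and 399.8 CPM in notum-1. In Kupffer's vesicle it was not tested, and its libraries stood at 0, 44.7, 0 and 0 CPM in WT and 48.75, 187, 49.8 and 105.5 CPM in notum-1. Polster cells were too few to test.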

How the data were processed

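Single-cell RNA-seq counts were deposited by the authors as 1 matrix of whole-number UMI counts of 21301 genes in 130661 cells, with a table that gives each cell's library, treatment and class. Reads had been processed with Cell Ranger against GRCz11, per the submitters' processing notes; the sources used here do not give versions. The mitochondrial percent of each cell, deposited by the authors, was used to compare libraries and, with the genes per cell, to set the common cell limits. The 8 WT and notum-1 libraries were used as deposited, with no further cell filter and no doublet caller; 518 of 64934 barcodes occurred in more than 1 of them. p-values measure the spread between libraries, which pool tails, except in the edgeR test of class differences. That test takes the class sums of a library as separate observations.

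Counts were summed per library and class, for 21 classes with at least 10 cells in every library, and for 3 classes with 3 to 9, a choice made after seeing the data. edgeR 4.0.16 in R 4.3.3 was used with filterByExpr, TMM factors, a robust quasi-likelihood fit of the 8 libraries and no covariate, and p-values were adjusted by Benjamini-Hochberg over all genes tested in a fit. Class differences came from edgeR over all classes with library as a term, adjusted over all gene and class pairs, and from limma 3.58.1 on differences within libraries over expressing classes, which was added after seeing the data and needed at least 2 other classes. Thinning was binomial and seeded, with 5 draws. Shares were compared by two-sided exact permutation of 70 assignments.

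Named genes were chosen by rule: 18 genes shown in all classes, up to 6 called genes per list with the smallest adjusted p, 8 shared genes per direction of at least 20 CPM, within a class the genes with the largest change of at least 50 CPM and groups apart, and, after seeing the data, the 5 genes per list with the smallest adjusted p in an expressing class and 3 per class and direction for class differences. spi1b and the germ cell genes were chosen after their values were seen. The 19 lists and the comparison itself were chosen with earlier results of these data known. On simulated counts, 99% of changes of 1 on the log2 scale were recovered in PSM (8577 genes, 12 false calls) and 58% in the pax2 class (2840 genes, 4 false calls). The simulation used a single fixed dispersion for all genes and no shift of a library as a whole. It therefore did not model the real spread between libraries. Alternatives were RLE and library-total scaling, DESeq2 1.42.0, no filter, all 16 libraries, a batch term and separate fits for the MG and DJ endings, common cell limits, thinning and leaving out each library. Not all same-ending libraries deviated together (correlations -0.284, 0.437, 0.375 and 0.095 over 5725 genes), so no pairing was used. Coordinates and sequences are not used here, and 1 gene with the list named for it is not reported here.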

Additional observations from a re-analysis of the deposited data

Results flagged for a closer look

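Single libraries stood away from the other 3 of their group in 30 of 366 groups examined, where about 1 in 20 is given by chance. Among shares, notum-1 MG2 held 0.203% of its cells in Kupffer's vesicle and WT MG2 held 2.51% in anterior notochord. Over all cells, WT libraries that stood apart were MG1 for wnt3a (0.920 CPM), DJ1 for her1 (44.6 CPM) and si:ch211-213c4.5 (77.0 CPM), DJ2 for egln3 (10.3 CPM), and MG2 for desma (6.495 CPM), acta1b (9.66 CPM), sox19b (42.3 CPM) and cdh11 (39.7 CPM). Among notum-1 libraries, MG2 stood apart for sox19b (24.0 CPM), ccna2 (120.1 CPM) and tfap2c (23.3 CPM), and DJ2 for rarga (92.1 CPM), hoxa10b (122.5 CPM), casp8 (6.95 CPM), her7 (224.0 CPM) and id1 (2855 CPM).

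For notum1a in WT, a single library above the rest was seen in anterior adaxial cells (MG2, 1.255 CPM), epidermis 1 (MG2, 1.93 CPM), intermediate mesoderm (DJ2, 0.4215 CPM), the hand2 class (MG1, 1.23 CPM), the lmo2 class (DJ2, 0.407 CPM) and posterior adaxial cells (DJ2, 1.4 CPM). These levels lie near the floor of the counts, so the chance rate given above may not hold for them. In intermediate mesoderm, notum-1 MG2 stood apart for afp4.1 (8463 CPM), apobb.1 (483 CPM) and apoa2 (733 CPM), genes of yolk and liver lipid transport in the case of the apolipoproteins, and notum-1 DJ2 for f11r.1 (287.0 CPM). notum-1 DJ2 also stood apart for ppdpfb in anterior notochord (227 CPM) and epcam in epidermis 1 (1626 CPM).

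The response of 54 gene and class pairs differed from that of other classes, by the tests described for class differences. Against other expressing classes (log2 scale), NMP differed for tob1a (-0.56) and meig1 (0.88), PSM for si:ch211-131k2.3 (-1.07) and rem1 (1.77), PZ 1 for dkk1b (-1.31) and tubb2b (0.32), PZ 2 for rem1 (-0.75) and si:dkey-151g10.6 (0.084), and PZ 3 for tbx16 (-0.67) and smkr1 (1.504). Anterior adaxial cells differed for tgfbi (-0.91) and pgp (1.38), and posterior adaxial cells for a gene known only by a clone name (-0.48) and glo1 (1.13). Among neuronal classes the differences were draxin (-0.84) and dkk1b (3.62) in anterior, tiam2a (-1.78) and id2a (1.83) in differentiated, stm (-1.645) and badb (1.185) in dorsal, and zic2a (-0.41) and calm3a (0.74) in posterior neuronal cells. In notochord they were crip3 (-1.65) and fhl1b (2.36) anteriorly and her15.1.1 (-0.57) and foxb1b (1.81) posteriorly.

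In skin, epidermis 1 differed for cebpb (-1.985) and serpinh1a (1.18), epidermis 3 for ptmab (-0.52) and notum1a (1.42), epidermis 4 for nkx1.2la (-1.43) and asb11 (0.70), and mucus producing cells for etf1a (-2.115) and mdkb (1.501). Intermediate mesoderm differed for rpa3 (-0.78) and zgc:64106 (2.32). The hand2 class differed for zgc:171775 (-2.53) and si:dkey-22l11.6 (0.81), the lmo2 class for nova2 (-1.42) and cebpb (3.54), and the pax2 class for meig1 (-1.88) and apela (1.005). Of these, tubb2b, si:dkey-151g10.6, zic2a, asb11, etf1a and mdkb are named for their difference alone, and of these all but tubb2b lost their call when 1 library was left out. meig1 in NMP, rem1 in PSM, si:dkey-151g10.6, smkr1, dkk1b in anterior neuronal cells, id2a, badb, notum1a, glo1, calm3a, si:dkey-22l11.6, cebpb in the lmo2 class and apela passed the expressing level through notum-1 alone, and rpa3 and zgc:171775 through WT alone, so their differences are given as values and not read as tests. dkk1b in PZ 1, rem1 in PZ 2, cebpb in epidermis 1 and meig1 in the pax2 class were compared with sets that include such a class. Their differences are likewise given as values.

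Against all other classes, epidermis 1 differed for tfap2c (1.84), snx5 (1.76), dspa (1.63), abracl (1.03), myh9a (1.52) and epcam (1.52), intermediate mesoderm for f11r.1 (1.66), afp4.1 (5.93), apobb.1 (4.26), apoa2 (4.89) and fetub (4.87), and anterior notochord for ppdpfb (1.13). In intermediate mesoderm these are the genes for which notum-1 MG2 or DJ2 stood apart, except fetub.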

How the results depend on the processing

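Over all cells, 5879 genes were called, 1791 in the MG libraries alone and 1584 in the DJ libraries alone (2 against 2), 4151 to 6516 with 1 library left out, and 5149 to 7438 under all other settings. Within classes, 41560 pairs were called, 62780 with scaling to the library total, 12312 (MG) and 17495 (DJ), 20736 in expressing classes (15343 that passed in both groups), and 29892 to 43951 with 1 library left out. Of 101 named list genes, 60 (MG) and 42 (DJ) kept their call, 86 with scaling to the library total and 88 to 96 with 1 library left out. Class differences numbered 7200 over all classes, 3685 by limma, 3816 under common cell limits, 4290 at 50 CPM or more, 1377 (MG), 2423 (DJ), 1999 among expressing classes, and 4228 to 7039 with 1 library left out. Shares with groups apart fell from 9 to 4 under common cell limits and were 6 to 8 with 1 library left out. The ratio of the highest to the lowest response at matched depth, 1.74, was 1.76 to 4.73 with 1 library left out. The difference of si:dkey-151g10.6 in PZ 2 reversed in the DJ libraries (-0.011) and the change of tpx2 in PZ 1 reversed with scaling to the library total (-0.011); the cause was not tested. The replicate block on the shared name endings, which not all pairs passed in the pairing check, gave 5601 genes over all cells, 40664 pairs, 98 of the 101 list genes and 12 shares at its smallest p of 0.125. Classes with few UMIs, such as mucus producing cells, limit what can be called there.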

Other observations

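spi1b, which codes for the PU.1 factor of myeloid blood cells, rose in the lmo2 class of lateral plate mesoderm and was chosen after its values were seen. It stood at 29.4, 27.6, 26.1 and 30.5 CPM in WT and 261, 229.5, 262 and 933 CPM in notum-1 (log2 fold change 3.89 ± 0.55, adjusted p = 0.00252, edgeR), with every notum-1 library above every WT library and DJ2 highest. The macrophage gene lcp1 stayed at or below 3.65 CPM in the same cells.

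nanos3, a germ cell gene, stood at 9.43, 23.1, 15.06 and 21.1 CPM in WT and 3.24, 479, 11.35 and 16.1 CPM in notum-1 in intermediate mesoderm, so notum-1 MG2 alone was high there. It is also the library with the outlying afp4.1 value in that class.

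Some genes with large changes within 1 class lie outside the lists. nkx2.7, a cardiac homeobox gene, stood at 0, 0, 4.73 and 3.62 CPM in WT and 23.85, 98.1, 33.6 and 51.55 CPM in notum-1 in epidermis 1 (log2 fold change 4.12 ± 0.65, adjusted p = 0.00163, edgeR). hbbe1.3, another embryonic globin gene, rose in intermediate mesoderm from 3.455 to 80.4 CPM (log2 fold change 4.53 ± 0.65, adjusted p = 0.00203). pcp4a, a calmodulin-binding peptide gene, fell in the lmo2 class from 290.3 to 10.1 CPM, and in PZ 2, which held 60.1% of its all-cells level and so is no expressing class, it went from 65.2 to 9.35 CPM.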
